A study of Mus musculus with 6 samples.

Results

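The genes described here encode subunits of respiratory complex I, complex III and ATP synthase, the electron carrier cytochrome c, and the inner-membrane carriers for ADP/ATP and phosphate. They were listed by gene name: 32 for complex I, 8 for complex III with cytochrome c, 15 for ATP synthase and 2 carriers, 57 in all. A probe set was taken where the array annotation gave it exactly 1 symbol. Of the 57 members, 47 had such a probe set, 65 probe sets in total on 18 chromosomes, and 45 members passed a filter on low signal, out of 4921 genes tested. All samples were total RNA of soleus, a postural hindlimb muscle of mostly oxidative fibres, from male mice, with 1 array each. The 3 tested samples came from BERKO mice, which lack estrogen receptor beta (gene Esr2), and the 3 control samples from wildtype C57BL/6 mice. The labels used here give neither the age of the mice, nor the strain background or allele of the BERKO mice, nor any treatment, and they do not say whether each sample was 1 animal. The p-values therefore measure the spread among these samples, which may be partly technical.

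Complex I takes electrons from NADH, complex III passes them on to cytochrome c, and the proton gradient that both help to build drives ATP synthase. Their nuclear-encoded subunits are abundant in oxidative muscle and are usually made in concert. Ndufa4, once counted with complex I, is now placed in complex IV. No single-symbol probe set was used for Ndufa4, Ndufb4, Ndufs5, Ndufs6, Ndufs7, Ndufs8, Uqcrfs1, Atp5b, Atp5g3 or Atp5h. Ndufc2 (17.6 to 33.0 over the 6 arrays) and Atp5j2 (at most 26.8) had a probe set that stayed below the filter and were not tested. A further 5 probe sets carried the name of a member together with that of a copy or pseudogene and were left out. Signals of near-identical copies cannot be told apart on these arrays, so the identity of the other members' signals is also open to that limit.

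The deposited signal intensities were already scaled to a common level, and the 2% trimmed mean of each array was 100.07 or 100.08. Array medians were 39.2, 36.8 and 39.3 in BERKO and 40.3, 40.5 and 39.8 in wild type. The Esr2 probe set read 8.4, 3.9 and 6.2 in BERKO, against 2.2, 3.2 and 1.3 in wild type, and 5 of these 6 readings lay at or below the floor of 7.8 used for low signals, so the targeted gene gave no check of the labels. Across all 6369 probe sets tested, 0 passed an adjusted p of 0.05 in limma (0.0% called, smallest adjusted p = 0.923), and 334 had an unadjusted p under 0.05. Every member below is therefore given by its values, and none passed the adjusted threshold: their adjusted p ranged from 0.923 to 0.996 in limma.

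Most members read slightly higher in BERKO soleus. Of the 45 tested members, 38 had a log2 difference, BERKO minus wild type, above 0 and 7 below, with a median of 0.14 (1.10-fold). Over all probe sets tested, 46.8% were above 0 and the median was -0.02. In whole muscle, fewer cells of a type and less RNA per cell cannot be told apart. An unadjusted p under 0.05 was found for 8 members, or 17.8%, 6 of them higher and 2 lower. Over all probe sets it was found for 5.24% (2.81% higher and 2.43% lower). The 2 lower members were Cycs and Atp5g1, and Atp5g1 passed the filter through its wild-type arrays. The readings of the 3 BERKO and the 3 wild-type arrays did not overlap for 12 members that were higher and 1 that was lower, or 28.9%, against 10.7% of all probe sets (5.45% higher and 5.23% lower). Most members give bright signals, and other bright genes were also mostly higher in BERKO. The comparison with them follows the members' values.

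**Figure D1:**
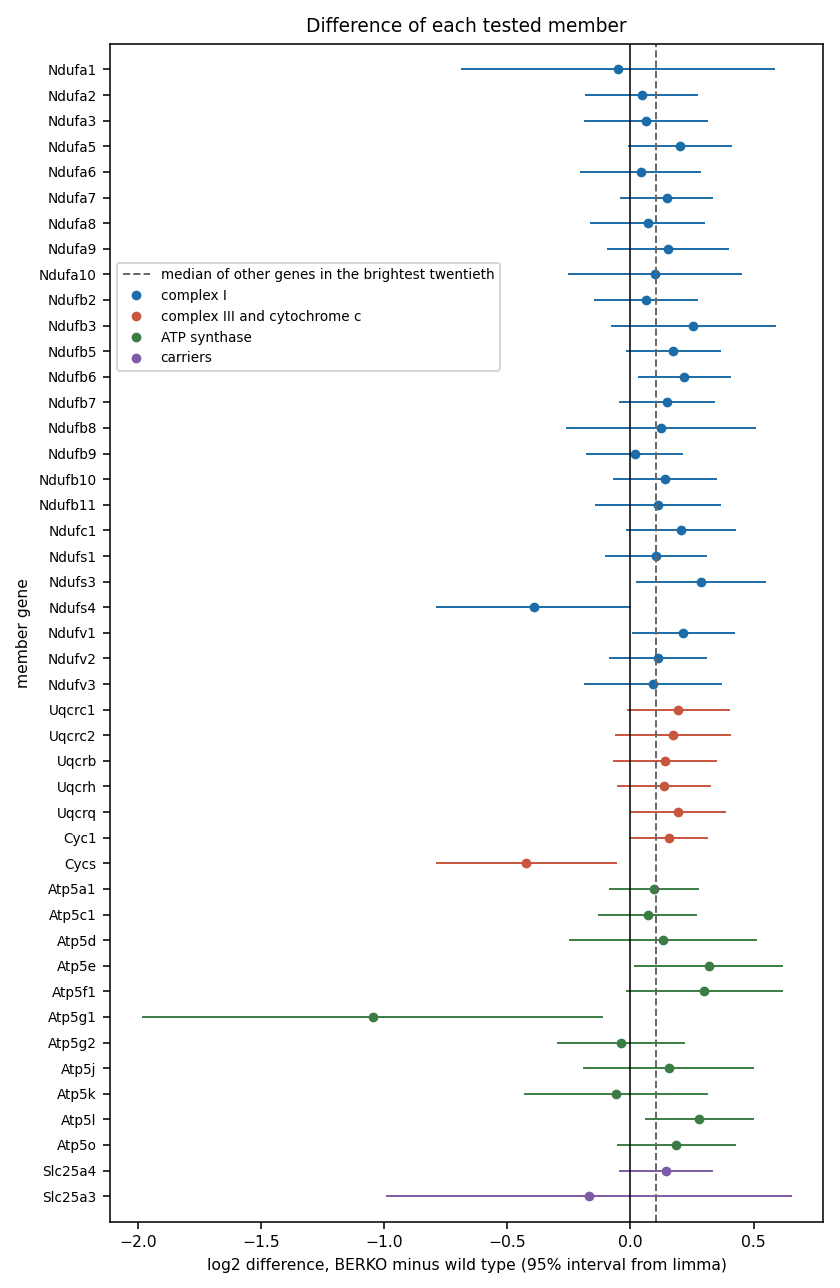
Log2 difference, BERKO minus wild type, of each of the 45 tested members (x axis), with the 95% interval from limma as a bar, coloured by complex; the dashed line is the median of the other genes in the brightest twentieth, 0.10. Points lie to the right of 0 for 38 members and to the left for 7, among them Ndufs4, Cycs and Atp5g1.

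The members turn up on many chromosomes, and 49 of the 57 had a promoter window in the RefSeq table of build GRCm38.p6, 250 bases before to 50 after the annotated start, 54 windows in all. The windows were searched on both strands for short motifs of factors known to act on nuclear genes for respiration, and for the palindrome bound by estrogen receptors. The NRF1 motif GCGCANGCG, of a factor named for nuclear genes of respiration, was in 33.3% of member windows, 13.5% of the windows of all genes tested on the arrays, 12.3% of those of other genes in the brightest twentieth, and 6.25% of all 32851 windows. The GABP motif CCGGAAG was in 22.2% of member windows, against 17.3%, 11.0% and 8.86% of the same 3 sets. The YY1 motif AAGATGGCG stood at 14.8%, against 2.99%, 2.54% and 1.40%, and the motif AAGGTCA of estrogen-related receptors in 7 of 54 member windows, against 3.53%, 7.20% and 4.72%. The estrogen receptor palindrome, GGTCA and TGACC with 3 bases between them, was in 0 of 54 member windows. It was also in 0 of 5149 windows of genes tested, 0 of 236 of other bright genes, and 0.0700% of all windows. A motif this rare cannot tell the members from other genes by its absence. By complex, the NRF1 motif was in 8 of 31 complex I windows, 2 of 4 complex III and cytochrome c windows and 7 of 17 ATP synthase windows. It was in 9 of 35 windows of members that read higher in BERKO and 4 of 7 windows of members that read lower. A match is a run of letters and not a measured site.

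The windows of 2 members that read higher (Atp5l and Uqcrc1) and 2 that read lower (Cycs and Ndufs4) are shown as examples. They were chosen after the values were seen, and no result below rests on their motifs. The bases of any of the 5 motifs are in capitals. Each is printed as the table gives it for the gene's strand. The Atp5l window (chr9:44920693-44920992, minus strand) holds 1 NRF1 match, 2 GABP matches and 1 match to the estrogen-related receptor motif. The Uqcrc1 window (chr9:108936398-108936697, plus strand) holds 3 NRF1 matches, a pair of them overlapping. The Cycs window (chr6:50566520-50566819, minus strand) holds 1 NRF1 match, at position -61 from the start. The Ndufs4 window (chr13:114388045-114388344, minus strand) holds 1 YY1 match, at position 35 after it.
Atp5l: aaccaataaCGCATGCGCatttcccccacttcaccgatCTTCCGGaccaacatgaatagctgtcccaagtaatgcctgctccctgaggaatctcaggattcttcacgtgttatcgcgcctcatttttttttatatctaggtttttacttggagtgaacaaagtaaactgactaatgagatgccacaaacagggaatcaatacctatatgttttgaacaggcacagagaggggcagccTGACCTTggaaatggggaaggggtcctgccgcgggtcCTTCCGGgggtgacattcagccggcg
Uqcrc1: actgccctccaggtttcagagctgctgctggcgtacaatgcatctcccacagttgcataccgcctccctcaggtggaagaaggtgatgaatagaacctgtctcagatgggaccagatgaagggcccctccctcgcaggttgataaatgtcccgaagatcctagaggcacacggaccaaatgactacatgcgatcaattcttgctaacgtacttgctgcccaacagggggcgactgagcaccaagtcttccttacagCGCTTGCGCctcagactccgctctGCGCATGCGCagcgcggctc
Cycs: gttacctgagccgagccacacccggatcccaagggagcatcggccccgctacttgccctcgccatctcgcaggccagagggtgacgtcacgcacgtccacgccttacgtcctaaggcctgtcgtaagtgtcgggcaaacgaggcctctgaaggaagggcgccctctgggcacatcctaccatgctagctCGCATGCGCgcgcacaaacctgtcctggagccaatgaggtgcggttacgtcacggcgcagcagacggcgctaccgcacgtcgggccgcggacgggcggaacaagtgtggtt
Ndufs4: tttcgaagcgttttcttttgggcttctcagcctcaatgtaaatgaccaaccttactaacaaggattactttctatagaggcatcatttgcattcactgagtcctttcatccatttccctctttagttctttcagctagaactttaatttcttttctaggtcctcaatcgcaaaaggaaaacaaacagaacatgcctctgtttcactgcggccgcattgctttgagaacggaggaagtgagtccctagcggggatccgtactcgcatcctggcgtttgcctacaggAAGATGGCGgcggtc

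In complex I, 23 of 25 tested members read higher in BERKO, with a median log2 difference of 0.11 and a range from -0.39 to 0.29. Ndufv1, the core subunit that binds NADH and passes its electrons to flavin, read 3499, 4114 and 4088 in BERKO, against 3407, 3175 and 3481 in wild type. The groups did not overlap, but the lowest BERKO array lay close to the highest wild-type array, and the log2 difference was 0.21 ± 0.09 (SE; limma adjusted p = 0.923). Ndufs3, a core subunit of the arm that hands electrons to ubiquinone, read 2609, 1988 and 2253 in BERKO and 2009, 1719 and 1864 in wild type. Its second BERKO array fell below the first wild-type array, so the groups overlapped, and its difference of 0.29 ± 0.12 was the highest in the complex. Ndufb6, an accessory subunit of the membrane arm, read 2369.5, 2227 and 2363 in BERKO, against 1964, 1954 and 2059 in wild type. All 3 BERKO arrays were above all wild-type arrays, with a log2 difference of 0.22 ± 0.08.

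Ndufs4, an accessory subunit of the matrix arm that is needed for a stable NADH-binding end, went the other way. It read 73.6, 55.5 and 72.0 in BERKO and 95.7, 84.5 and 82.3 in wild type, without overlap (log2 difference -0.39 ± 0.17, unadjusted p = 0.0501 and adjusted p = 0.923 in limma). Among the 25 tested complex I members it was the only one that read lower without overlap. Ndufa1, small and anchored in the membrane, read 51.9, 37.8 and 62.0 in BERKO and 38.3, 66.6 and 52.9 in wild type (difference -0.05), and its groups overlapped widely.

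The matrix arm and the membrane arm gave nearly the same median. In the NADH-binding and ubiquinone-binding modules, 10 of 11 tested members were higher (median 0.11), and in the membrane arm with the remaining accessory subunits, 13 of 14 (median 0.12). Beside Ndufb6 and Ndufv1, the groups did not overlap for Ndufa5, Ndufa7, Ndufb5 and Ndufb7, accessory subunits whose log2 differences were 0.20, 0.15, 0.17 and 0.15. Ndufb3 (0.26) and Ndufb8 (0.12) varied more: Ndufb3 read 1657, 2266 and 1491 in BERKO, and Ndufb8 2356.5, 1739 and 2311. The second BERKO array was the highest of the group for Ndufb3 and the lowest for Ndufb8. The remaining members with positive values, Ndufa2, Ndufa3, Ndufa6, Ndufa8, Ndufa9, Ndufa10, Ndufb2, Ndufb9, Ndufb10, Ndufb11, Ndufc1, Ndufs1, Ndufv2 and Ndufv3, lay between 0.02 (Ndufb9) and 0.20 (Ndufc1), and the groups of each overlapped.

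Further probe sets of complex I genes did not always give the same value. For Ndufb2, the brighter probe set gave 0.06 with overlap, while a nearly equally bright one read 2926, 3090 and 2807 in BERKO and 2325, 2695 and 2344.5 in wild type (0.26 ± 0.09, no overlap, limma adjusted p = 0.923). The dim further probe sets of Ndufa3 and Ndufv2 gave -0.25 and -0.07, against 0.06 and 0.11 for the brighter ones.

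**Figure D2:**
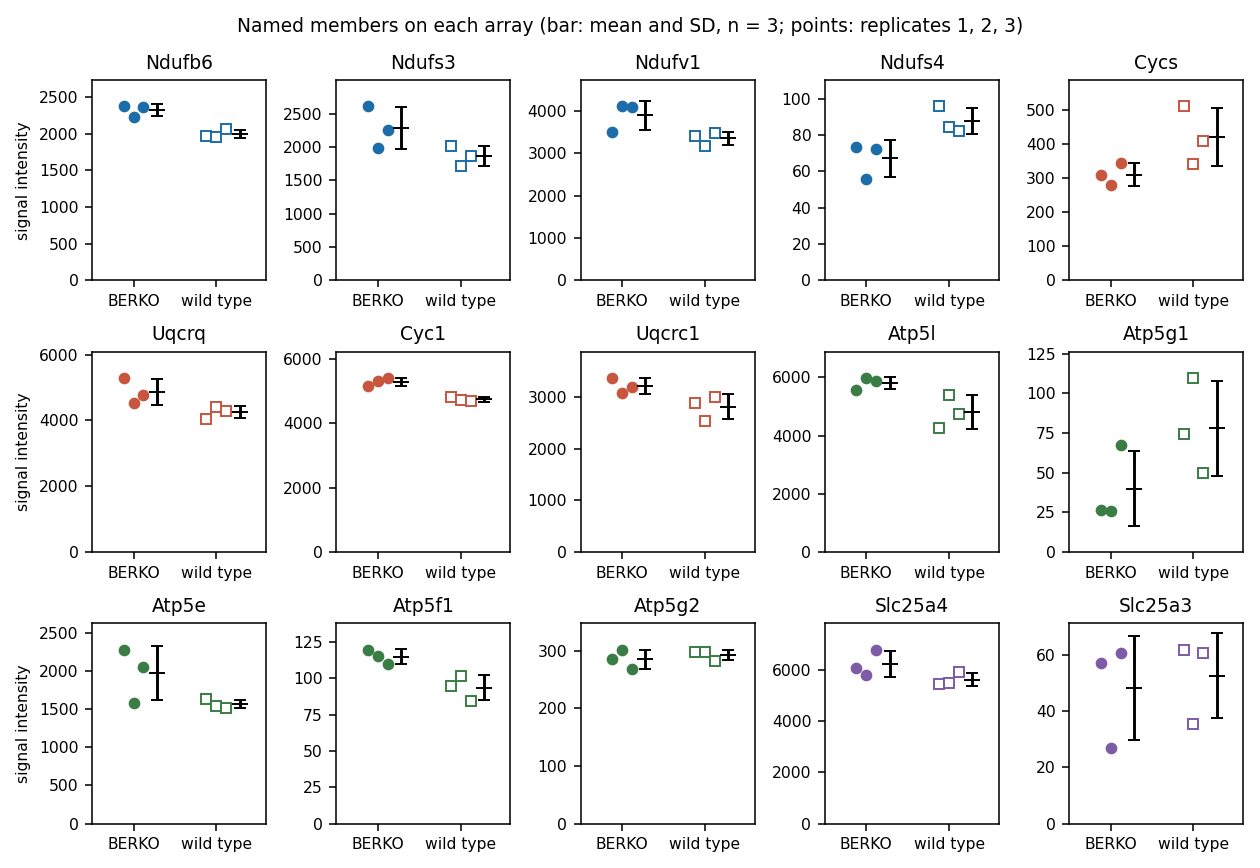
Deposited signal intensity (y axis, from 0) of 15 members on each of 3 BERKO arrays (filled circles, left) and 3 wild-type arrays (open squares, right), with mean and SD beside them. Ndufb6, Ndufv1, Uqcrq, Cyc1, Uqcrc1, Atp5l and Atp5f1 lie higher in BERKO without overlap, and Ndufs4 lower.

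In complex III the 6 tested subunits were all higher in BERKO, by 0.14 to 0.19 on the log2 scale, while cytochrome c itself was lower. Uqcrq, a small subunit of the membrane part, read 5289.8, 4537 and 4768 in BERKO, against 4044, 4398 and 4297 in wild type. Its groups did not overlap (0.19 ± 0.08). Cyc1, cytochrome c1, which hands electrons to cytochrome c, read 5136, 5291 and 5400.2 in BERKO and 4819.6, 4716 and 4671 in wild type. The spread within each group was narrow and the groups were apart, with a difference of 0.16 ± 0.07. A dimmer Cyc1 probe set gave 0.18 ± 0.15 with overlap.

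Uqcrc1, a core protein of complex III whose promoter window is shown above, read 3366, 3071 and 3184 in BERKO, against 2879, 2542 and 3004 in wild type (0.19 ± 0.09, no overlap). Uqcrh, the acidic hinge protein next to cytochrome c1, gave 0.14 without overlap. Uqcrc2, the partner core protein, and Uqcrb, a small subunit near the ubiquinone site, gave 0.17 and 0.14 with overlap.

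Cycs, the soluble carrier between complexes III and IV that also takes part in cell death, read 310.4, 279.1 and 344.4 in BERKO and 511.7, 342.0 and 410.5 in wild type. The highest BERKO array lay just above the lowest wild-type array, so the groups overlapped, and the log2 difference was -0.42 ± 0.16 (95% interval -0.79 to -0.06, unadjusted p = 0.0276 and adjusted p = 0.923 in limma). It was negative under each of the 19 alternatives tried, from -0.56 without wild-type replicate 2 to -0.27 without wild-type replicate 1. Several of these, such as those that change only the filter or the error estimate, leave it at -0.42 by construction. They do not test its sign.

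Of 11 tested members of ATP synthase, 8 were higher in BERKO and 3 lower, with a median of 0.13. Atp5l, subunit g of the membrane part, read 5558, 5979.5 and 5876 in BERKO, against 4244, 5405 and 4754 in wild type. The 3 BERKO arrays lay above all wild-type arrays, and the difference of 0.28 ± 0.10 had the smallest unadjusted p of any member, 0.017 (limma adjusted p = 0.923). A dim second Atp5l probe set, at 28.2 to 68.5 over the 6 arrays, gave -0.38 ± 0.34 with overlap.

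Atp5e, the epsilon subunit of the catalytic head, read 2279, 1581 and 2049.9 in BERKO and 1628, 1544 and 1520.0 in wild type. The second BERKO array lay within the wild-type range and the other BERKO arrays above it (0.32 ± 0.13). Atp5f1, subunit b of the peripheral stalk that holds the head still, read 119.9, 115.7 and 109.7 in BERKO, against 95, 101.5 and 84.5 in wild type, with no overlap (0.30 ± 0.14).

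All 4 tested genes of the catalytic head were higher with the deposited scaling, with Atp5a1 (alpha) at 0.10, Atp5c1 (gamma) at 0.07 and Atp5d (delta) at 0.13, and Atp5e as above. Atp5a1 and Atp5c1 turned to -0.03 and -0.04 after quantile normalization and to -0.05 and -0.06 after cyclic loess. The 3 tested stalk genes were also higher, with Atp5j (F6) at 0.16 and Atp5o, the subunit that joins the stalk to the head, at 0.19, although Atp5j was at -0.01 without BERKO replicate 2. Of these 7 genes, the groups did not overlap for Atp5f1. The 4 tested probe sets of Atp5d ran from -0.05 to 0.16.

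The c ring turns in the membrane as protons pass, and its subunit is encoded by Atp5g1, Atp5g2 and Atp5g3, which give the same mature peptide behind different import sequences. Atp5g1 read 26.2, 26.0 and 67.2 in BERKO and 74.0, 109.6 and 49.8 in wild type (-1.05 ± 0.41, unadjusted p = 0.0317 and adjusted p = 0.923 in limma). The third BERKO array lay above the lowest wild-type array, and all readings were low. The filter asks for more than 39.4 on at least 3 arrays. All wild-type arrays met this, but the first and second BERKO arrays did not. The probe set was thus tested through the group where it reads high, and its p is no support for a difference. The difference ran from -1.50 without BERKO replicate 3 to -0.53 over the 4 arrays that share a title prefix. The other tested Atp5g1 probe set read 47.7, 38.2 and 35.7 in BERKO, against 44.9, 45.5 and 45.9 in wild type (-0.18 ± 0.24). Here too all wild-type arrays were above 39.4, while the BERKO readings of 38.2 and 35.7 were not. This probe set thus also passed the filter through its wild-type arrays, and its sign is no separate support for a difference. Atp5g2 read 285.1, 301.7 and 267.8 in BERKO and 296.8, 297.3 and 282.4 in wild type, a difference of -0.04 ± 0.11 whose sign turned with median scaling and without BERKO replicate 3. Atp5k, subunit e of the membrane part, gave -0.06 with overlap.

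Slc25a4, the ADP/ATP carrier of muscle, read 6083, 5802 and 6795 in BERKO, against 5459, 5493 and 5921 in wild type (0.14 ± 0.08, with overlap). Slc25a3, the phosphate carrier, read 56.9, 26.9 and 60.7 in BERKO and 61.8, 35.2 and 60.6 in wild type (-0.17 ± 0.36). The second array of each group was the low one for Slc25a3.

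**Figure D3:**
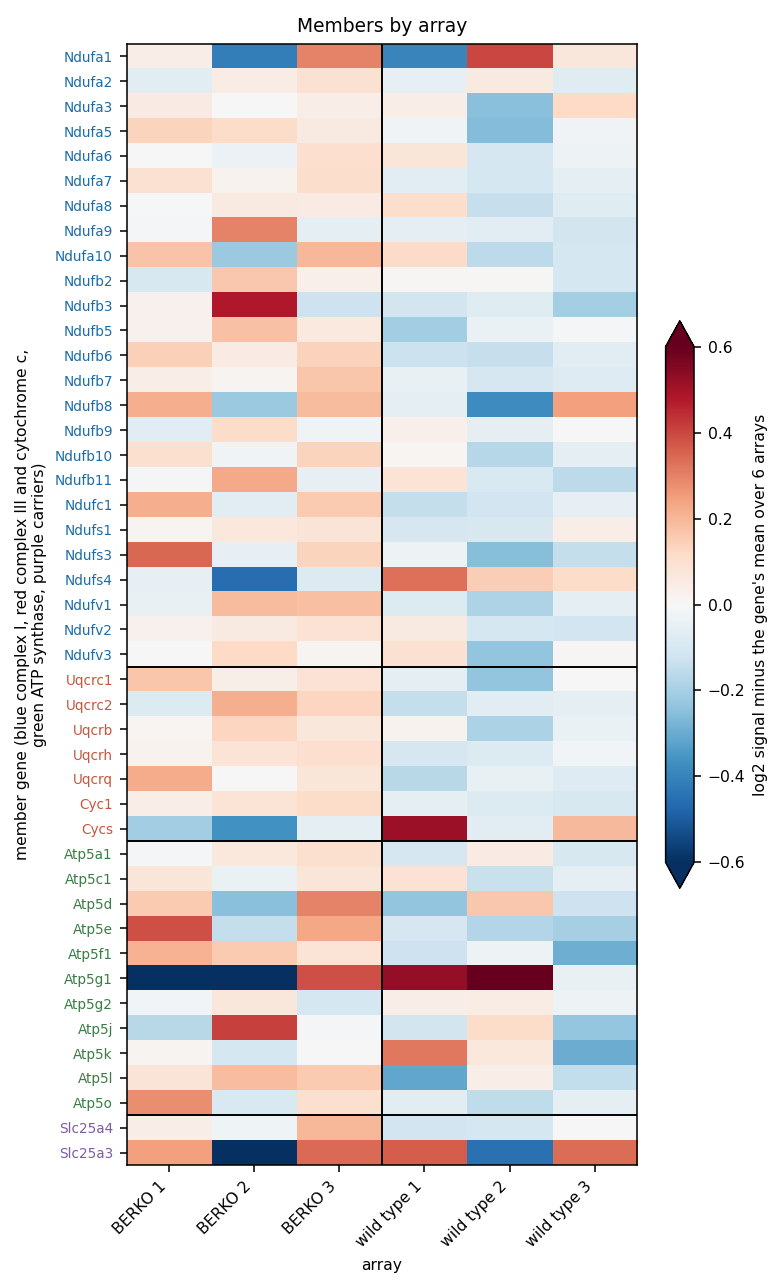
Log2 signal of each of the 45 tested members minus its mean over the 6 arrays (colour, stopping at 0.6 either way), with the 3 BERKO arrays left of the 3 wild-type arrays and members grouped by complex. Most complex I and complex III rows are warm on the left and cool on the right, and Ndufs4 and Cycs run the other way.

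Across arrays, the members of complexes I and III moved as groups more evenly than those of ATP synthase. The median deviation of complex I members from their own mean over 6 arrays was 0.03, 0.05 and 0.09 on the BERKO arrays and -0.03, -0.10 and -0.05 on the wild-type arrays (log2). For complex III with cytochrome c it was 0.02, 0.08 and 0.09 in BERKO, against -0.06, -0.08 and -0.04 in wild type. For ATP synthase it was 0.07, -0.04 and 0.09 in BERKO, against -0.10, 0.04 and -0.12 in wild type, so the second array of each group stood on the far side of 0. Those arrays share a title prefix that the other 4 do not have. Over the 4 arrays alone, the median differences were 0.11 for complex I, 0.12 for complex III and 0.14 for ATP synthase, and between the second BERKO and the second wild-type array they were 0.16, 0.17 and 0.03. The labels do not say what the prefix stands for.

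The direction of a member went with its brightness. The 31 members in the brightest twentieth of all tested genes were all higher in BERKO, with a median of 0.15, and of the other 14 members 7 were higher and 7 lower, with a median of 0.00. The 7 lower ones were Ndufa1, Ndufs4, Cycs, Atp5g1, Atp5g2, Atp5k and Slc25a3. Other genes of that brightness were also mostly higher: of 216, 78.2% had a difference above 0, with a median of 0.10, and 25 of the 31 bright members lay above that median. An unadjusted p under 0.05 was found for 6 of the 31 bright members and for 17.1% of the 216 other genes. The groups lay apart, higher in BERKO, for 35.5% of the bright members and 23.1% of the other bright genes. Among the dimmest 984 genes the median was -0.08. The 216 bright genes deviated by 0.03, 0.09 and 0.07 on the BERKO arrays and by -0.08, -0.05 and -0.02 on the wild-type arrays, with the same sign on each array as the medians of complexes I and III.

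**Figure D4:**
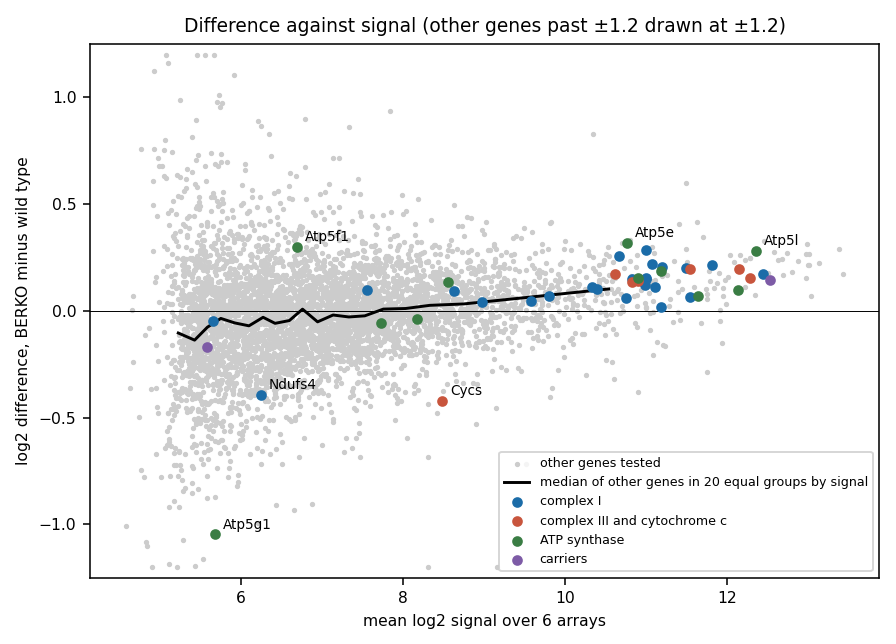
Log2 difference, BERKO minus wild type (y axis), against mean log2 signal over 6 arrays (x axis) for all 4921 tested genes in grey and the 45 members in colour; the line joins medians of 20 equal groups of other genes. The line climbs with signal, most bright members lie above its right end, and Cycs, Ndufs4 and Atp5g1 lie below.

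Scalings that take this trend with signal out of the arrays lowered the members' differences. After quantile normalization the medians were 0.03 for complex I, 0.06 for complex III and 0.07 for ATP synthase, and 0.01 for the other bright genes. After cyclic loess they were 0.02, 0.03, 0.05 and 0.00. In each case 31 of 45 members were above 0 and 14 below. Under each scaling 8 of the 38 members that were higher in BERKO turned lower. Ndufa2, Ndufa3, Ndufb2, Ndufb9, Atp5a1, Atp5c1 and Slc25a4 did so under both, Cyc1 after quantile normalization and Ndufv2 after cyclic loess, with values between -0.10 and -0.00. Ndufa1 turned higher under both, at 0.02. The 3 of 45 members at an unadjusted p under 0.05 were then Cycs, Atp5f1 and Atp5g1 under both. The same held for 270 (quantile) and 272 (cyclic loess) of all 6369 probe sets, and for 4.63% of the other bright genes. Atp5g1 had passed the filter through its wild-type arrays. Whether the trend belongs to the tissue or to the arrays was not tested.

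**Figure D5:**
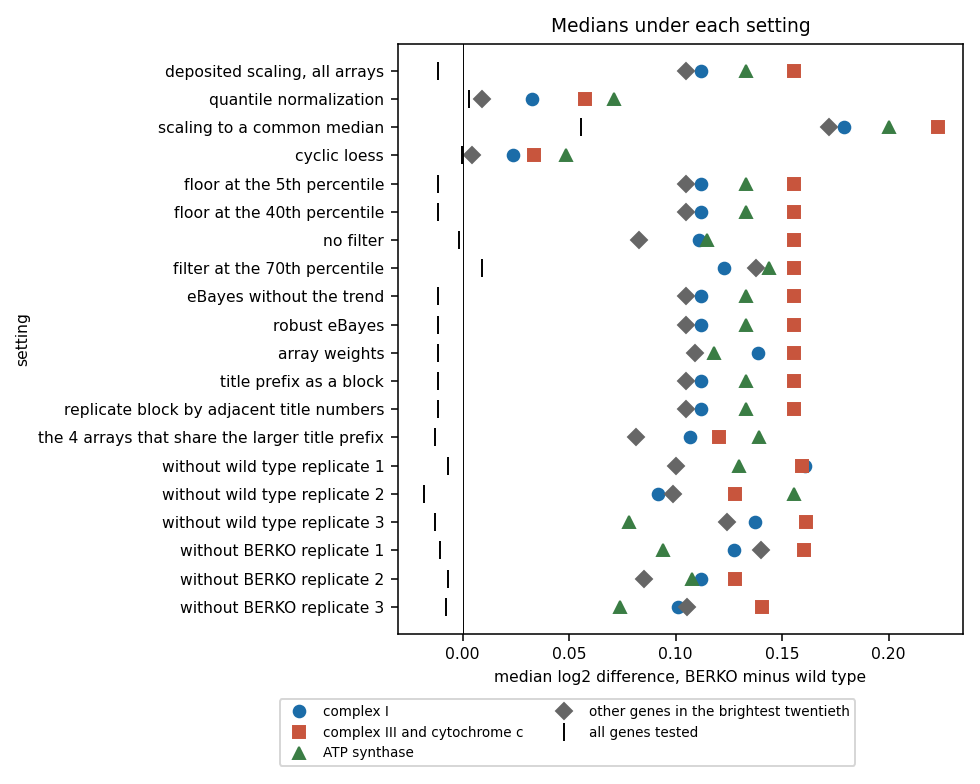
Median log2 difference, BERKO minus wild type (x axis), of complex I, complex III with cytochrome c, ATP synthase, the other genes in the brightest twentieth and all tested genes, under the deposited scaling with all arrays (top) and each alternative. The 3 complexes stay above 0 throughout, from 0.02 to 0.22, and come nearest to 0 after quantile normalization and cyclic loess.

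Other genes of the same machinery gave mixed values. Among 6 further subunits or regulators of complex III and ATP synthase, 5 were higher (median 0.14), with the smallest p for Atp5md, a small membrane subunit of ATP synthase (0.19), and Atp5mpl (0.14, no overlap). Of 2 further complex I genes, Ndufab1, the acyl carrier protein, gave 0.14 and Ndufa13 -0.14. In complex II, the succinate dehydrogenase that feeds complex III, the membrane anchors Sdhd (0.20) and Sdhc (0.12) were apart from wild type without overlap, the iron-sulfur subunit Sdhb gave 0.09 and the flavoprotein Sdha -0.13. In complex IV, the terminal oxidase, 5 of 11 tested genes were higher (median 0.00), with the muscle isoform Cox6a2 at 0.27 and Cox7a2 at 0.16. Assembly factors had 4 of 9 higher (median 0.00), with Uqcc1 at -0.38 and Uqcc2 at 0.18, both helpers of complex III assembly. They were dimmer than most members, with readings from 49.5 (Uqcc3) to 555.3 (Aifm1). These lists were not matched to the members for brightness. An adjusted p under 0.05 was reached by 0 genes of these lists in limma, and an unadjusted one by Sdhd and Cox6a2.

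Regulators of mitochondrial genes had 4 of 7 tested members higher, with a median of 0.00. Their readings, from 23.7 (Ppargc1a) to 559.7 (Esrra), were also dimmer than those of most respiratory members. Tfb2m, a factor for transcription of mitochondrial DNA, read 119.4 ± 22.3 in BERKO and 155.5 ± 11.8 in wild type (SD, n = 3 each), without overlap (-0.39, limma adjusted p = 0.923). Esrra, the estrogen-related receptor alpha that acts on respiratory genes, gave 0.21 with overlap. Genes of mitochondrial mass and structure had 6 of 13 higher (median -0.02), with the fusion protein Mfn1 at 0.26 and the outer-membrane channel Vdac2 at -0.40.

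Most muscle fibre genes also read higher in BERKO, in shares near that of other bright genes. Most of these markers are bright. Of the 216 genes outside the member list in the brightest twentieth, such markers included, 78.2% were above 0 (median 0.10). Over all genes tested the share was 47.6%. Of 10 slow fibre markers 8 were higher in BERKO (median 0.18), and their summed signal ran from 71615 to 78674 in BERKO and from 57332 to 72795 in wild type. Of 11 tested fast fibre markers 8 were higher (median 0.24), with sums of 40485 to 41488 in BERKO and 35278 to 41152 in wild type, and Myh2 of type IIa fibres was below the filter. The 3 fast fibre genes that read lower, named after their values were seen, were Myh4, Actn3 and Pvalb. Myh4, the myosin of type IIb fibres, read 211.0, 790.7 and 73.8 in BERKO, against 1610.0, 3670.9 and 499.4 in wild type, with overlap (-2.64 ± 0.86, limma adjusted p = 0.923). The second array of each group was its highest, and among arrays of one title prefix every BERKO reading lay below every wild-type reading. That split by prefix was made after the values were seen and leaves few arrays per group. It is no support for a difference. Actn3, the alpha-actinin of fast fibres, read 256.8, 340.2 and 79.0 in BERKO and 519.4, 922.2 and 309.9 in wild type (-1.48 ± 0.53, with overlap), and Pvalb, the calcium buffer parvalbumin, gave -0.32 ± 0.34. Myoglobin Mb (0.27), the light chains Myl3 (0.21) and Myl1 (0.27) and the calcium store protein Casq1 (0.42) had the 2 smallest p within the slow and within the fast list. Among 33 tested markers of fat, vessel, macrophage, Schwann, connective tissue, blood and smooth muscle cells, 15 were higher and 18 lower. The sums of fat markers were 366.8 to 387.5 in BERKO and 364.4 to 592.0 in wild type, with Ucp1 of brown fat below the filter. Of the 4 tested, Adipoq gave -0.90 ± 0.38 with overlap, and Lep, Cidea and Retn gave -0.06, -0.03 and 0.02. Red blood cell markers summed to 2352 to 2606 in BERKO, against 1957 to 5668 in wild type. No marker was listed at 0 on any array, but the lowest reading was 1.3, under the floor of 7.8. A reading above 0 is therefore not detection. Cidec, Elovl3, Adgre1, Mrc1 and Cnn1 also stayed below the filter. The part of these markers in the members' values was not tested.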

How the data were processed

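The members and gene lists were chosen with earlier results of these data known. The authors deposited 1 signal intensity per probe set and array on a linear scale. The sources used here do not name the software, and the deposited intensities were already scaled. Of 12488 probe sets, 66 controls were left out, and 10833 of the rest had exactly 1 symbol in the platform annotation. Intensities under the 20th percentile, 7.8, were set to that floor and taken to log2. Probe sets above the median, 39.4, on at least 3 of 6 arrays were tested (6369, for 4921 genes), BERKO minus wild type, two-sided, with limma 3.58.1 in R 4.3.3 (eBayes with an intensity trend, Benjamini-Hochberg over all probe sets). Precision is limited by having 6 arrays, with a median standard error of 0.18 over all probe sets and 0.10 over the members.

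A gene was represented by its tested probe set with the highest mean log2 signal. Per-array values are given for the 4 members of each complex with the smallest p, for Cycs, the c ring genes and the carriers. From each further list of mitochondrial or fibre genes the 2 with the smallest p are named, and all 4 of complex II. Other members with per-array values, further markers and the promoter windows shown were chosen after their values were seen. Groups overlap or not on the deposited values. The steps were tested on simulated data. Figures were drawn with matplotlib 3.10.9.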

Additional observations from a re-analysis of the deposited data

How the results depend on the processing

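With 3 arrays a group no member passed the adjusted threshold under any of the 19 alternatives, so no call was lost; the smallest adjusted p of the 15 members with per-array values was 0.469. The count of all probe sets past the adjusted threshold was 0, but 1 without the filter and 1, Myh4, with adjacent title numbers as a replicate block (-2.64 ± 0.15, limma adjusted p = 0.0031). The labels do not say that these numbers pair mice, and the deviations of adjacent arrays from their group means correlated at -0.0052, 0.035 and -0.0029 over 6369 probe sets. The count was 0 to 1 with single arrays omitted. The count of members at an unadjusted p under 0.05 was 8, against 3 after quantile normalization and 3 after cyclic loess. It was 17 with scaling to a common median, 5 without the filter and 2 without the intensity trend. It was 14 with the title prefix as a block, 8 with the replicate block, and 2 to 6 with single arrays omitted (2 without wild-type replicate 1). The count over all 6369 probe sets moved as well, from 334 to 270 (quantile), 272 (cyclic loess), 406 (median scaling) and 298 (no trend). For the whole table it was 403 with the prefix block, 337 with the replicate block and 206 to 437 with single arrays omitted. Without the filter, 619 of 12422 probe sets had such a p. The medians of complexes I and III were 0.033 and 0.058 after quantile normalization, 0.024 and 0.034 after cyclic loess (ATP synthase 0.049), and 0.18 and 0.22 with median scaling, which moved the median of all genes to 0.055. Complex III was at 0.12 over the 4 arrays with the larger title prefix. With single arrays left out, complex I ran from 0.092 (without wild-type replicate 2) to 0.16 (without wild-type replicate 1), complex III from 0.13 to 0.16, and ATP synthase from 0.074 (without BERKO replicate 3) to 0.16. Without wild-type replicate 3, ATP synthase was at 0.078. The number of members above 0 ran from 31 to 41 over all alternatives. Of all 45 members, 12 of the higher and 4 of the lower ones turned sign under some alternative: Ndufa2, Ndufa3, Ndufb2, Ndufb8, Ndufb9, Ndufv2, Ndufv3, Cyc1, Atp5a1, Atp5c1, Atp5j and Slc25a4 to lower, and Ndufa1, Atp5g2, Atp5k and Slc25a3 to higher. Among the 15 members with per-array values, signs turned for Cyc1 (-0.041, quantile), Slc25a4 (-0.070, quantile, and -0.018, cyclic loess), Atp5g2 (0.029, median scaling, and 0.0059, without BERKO replicate 3) and Slc25a3 (0.21, without BERKO replicate 2). With single arrays omitted, Atp5g2 ran from -0.080 to 0.0059 and Slc25a3 from -0.43 to 0.21. The cause was not tested. Counting members above 0 under each alternative was added after seeing the data. Floors turned no member, robust eBayes leaves the differences unchanged by construction, and array weights turned Ndufb9 and Ndufa1. Dim members such as Atp5g1, Slc25a3, Ndufs4 and Atp5f1 are limited by signal close to background.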
